A study of Bos indicus with 6 samples.

Results

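The genes described here are 5 protein-coding genes of the mitochondrial genome, out of 24616 gene identifiers measured in bovine endometrium, the lining of the uterus. They were chosen by identifier. ENSBTAG00000043561 is listed as COX1, ENSBTAG00000043556 as COX2, ENSBTAG00000043560 as COX3, ENSBTAG00000043550 as CYTB and ENSBTAG00000043584 as ATP6. The RefSeq gene table at hand held 0 of the 5 identifiers and 0 of the 5 symbols, so these names come from the selection rule and were not checked against an annotation. COX1 and COX2 here are subunits of cytochrome c oxidase and not the prostaglandin synthases that share these abbreviations.

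Total RNA was sequenced from the endometrium of 6 healthy, nonlactating, multiparous Nelore cows (zebu beef cattle, Bos indicus), 3 per regimen. All cows were presynchronized. On day -10 each was given estradiol benzoate together with a device that releases progesterone. Each then received cloprostenol, a prostaglandin analogue, when the device came out, and GnRH on day 0, and was slaughtered for collection of the endometrium on day 7. The corpus luteum is the progesterone-secreting gland formed from the ovulated follicle. Cows labelled LF-LCL were managed towards a large follicle and a large corpus luteum: a further cloprostenol dose was given on day -10 and the device was withdrawn 42 to 54 hours before GnRH. Cows labelled SF-SCL were managed towards a small follicle and a small corpus luteum: no cloprostenol was given on day -10 and the device was withdrawn 30 to 36 hours before GnRH. The trial enrolled 74 cows, and the sources used here do not say how these 6 were picked. The comparison asks whether endometrial transcripts differed with the hormonal course around ovulation.

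The respiratory chain, in the inner mitochondrial membrane, passes electrons from nutrients to oxygen and pumps protons, and the ATP synthase uses the resulting gradient to make ATP. Most of its subunits are encoded in the nucleus, and a few hydrophobic core subunits are encoded by the mitochondrial DNA itself. COX1, COX2 and COX3 form the core of complex IV, cytochrome c oxidase. CYTB is the cytochrome b subunit of complex III, and ATP6 is a subunit of the proton channel of complex V, the ATP synthase. In mammals all 5 are transcribed from the heavy-strand promoter as parts of long precursor RNAs that are cut into single transcripts, so their steady-state levels also depend on how each transcript is processed and degraded. The mitochondrial genome is compact, ATP6 overlaps its neighbour ATP8, and copies of mitochondrial DNA lie in the nuclear genome. The sources used here do not say how reads shared between such sequences were assigned.

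The libraries held 2896663 to 7811332 reads assigned to genes. Values are normalised read counts, a gene's reads divided by the size factor of its library. On this scale 1 read was worth 0.562 at the greatest depth and 1.55 at the lowest. The members were among the most deeply covered genes, with 3101 to 115806 reads per gene and library, so counting error was small beside the differences between cows. The identifiers could not be paired with symbols, so markers of endometrial cell types, of RNA quality and of the nuclear-encoded subunits were not analysed here. In bulk tissue, fewer cells of a type rich in mitochondria and less mitochondrial RNA per cell cannot be told apart.

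None of the 5 genes passed the test for a difference between the regimens. COX1, COX2, COX3 and ATP6 had higher mean levels in LF-LCL, with log2 fold changes of 0.14 to 0.42, and CYTB had a lower mean level, with a log2 fold change of -0.53. CYTB was the only member whose values did not overlap between the regimens, a property of 22.8% of all tested genes. The largest contrasts without overlap lay between CYTB and the other 4 transcripts within the same library: relative to CYTB they were 1.60-fold to 1.94-fold higher in LF-LCL than in SF-SCL. Of other genes with reads in every library, 36% also had ratios to CYTB without overlap.

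COX1 encodes the subunit of complex IV that holds the oxygen-reducing site. Its normalised read counts were 55244, 96435 and 75719 in LF-LCL replicates 1 to 3 and 45655, 64493 and 56983 in SF-SCL replicates 1 to 3. LF-LCL replicates 2 and 3 lay above all SF-SCL cows, and LF-LCL replicate 1 lay below 2 of them. The means were 75799 ± 20596 (SD, n = 3) in LF-LCL against 55710 ± 9483 (SD, n = 3) in SF-SCL. The fitted log2 fold change was 0.42 ± 0.323 (SE), with a 95% interval of -0.32 to 1.16 (limma, adjusted p = 0.565). This interval runs from 0.802-fold to 2.24-fold, so a 2-fold higher level in LF-LCL lies within it. Its width depended on the setting. On the log2 scale the upper limit was 1.36 with a pseudocount of 5 and 0.935 with limma-voom, the latter below 2-fold. Without LF-LCL replicate 2 the log2 fold change of COX1 was 0.23. COX1 had the highest mean over all genes of the table; by library it ranked first in each LF-LCL library and next to first in each SF-SCL library.

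COX2 encodes the subunit that takes electrons from cytochrome c. Its normalised read counts were 8283, 11282 and 8633 in LF-LCL replicates 1 to 3 and 6515, 8866 and 7978 in SF-SCL. The groups overlapped, because SF-SCL replicate 2 exceeded LF-LCL replicates 1 and 3. The means were 9399 ± 1640 (SD, n = 3) and 7787 ± 1187 (SD, n = 3), and the log2 fold change was 0.27 ± 0.186 (SE; limma, adjusted p = 0.521). Without LF-LCL replicate 2 it was 0.13.

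COX3 encodes the third core subunit of complex IV. It was at 9940, 15847 and 13224 normalised read counts in LF-LCL replicates 1 to 3 and at 10193, 13580 and 11201 in SF-SCL. LF-LCL held both the highest and the lowest cow of the 6. The means were 13004 ± 2960 (SD, n = 3) and 11658 ± 1739 (SD, n = 3), with a log2 fold change of 0.14 ± 0.217 (SE; limma, adjusted p = 0.792). Without LF-LCL replicate 2 the log2 fold change was -0.014.

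ATP6, the complex V subunit, varied most between LF-LCL cows on the log2 scale. Its normalised read counts were 7942, 14232 and 8666 in LF-LCL replicates 1 to 3 and 7734, 10633 and 8343 in SF-SCL. Only LF-LCL replicate 2 lay above the SF-SCL range. The means were 10280 ± 3442 (SD, n = 3) and 8903 ± 1529 (SD, n = 3), with a log2 fold change of 0.17 ± 0.246 (SE; limma, adjusted p = 0.777). The sign rested on LF-LCL replicate 2, without which the log2 fold change was -0.088.

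CYTB, the complex III subunit that carries electrons between the quinone sites, had a difference of the opposite sign. Its normalised read counts were 3862, 5299 and 4363 in LF-LCL replicates 1 to 3 and 5636, 8651 and 5536 in SF-SCL. Every LF-LCL cow lay below every SF-SCL cow, and SF-SCL replicate 2 stood well above the other 5. The means were 4508 ± 729 (SD, n = 3) and 6607 ± 1771 (SD, n = 3). The log2 fold change was -0.53 ± 0.208 (SE; 95% interval -1.01 to -0.054), a level 1.45-fold higher in SF-SCL. It did not pass the threshold after adjustment over all tested genes (limma, unadjusted p = 0.0331, adjusted p = 0.248). Without SF-SCL replicate 2 the log2 fold change was -0.32, a smaller difference by more than 1.5 times.

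**Figure D1:**
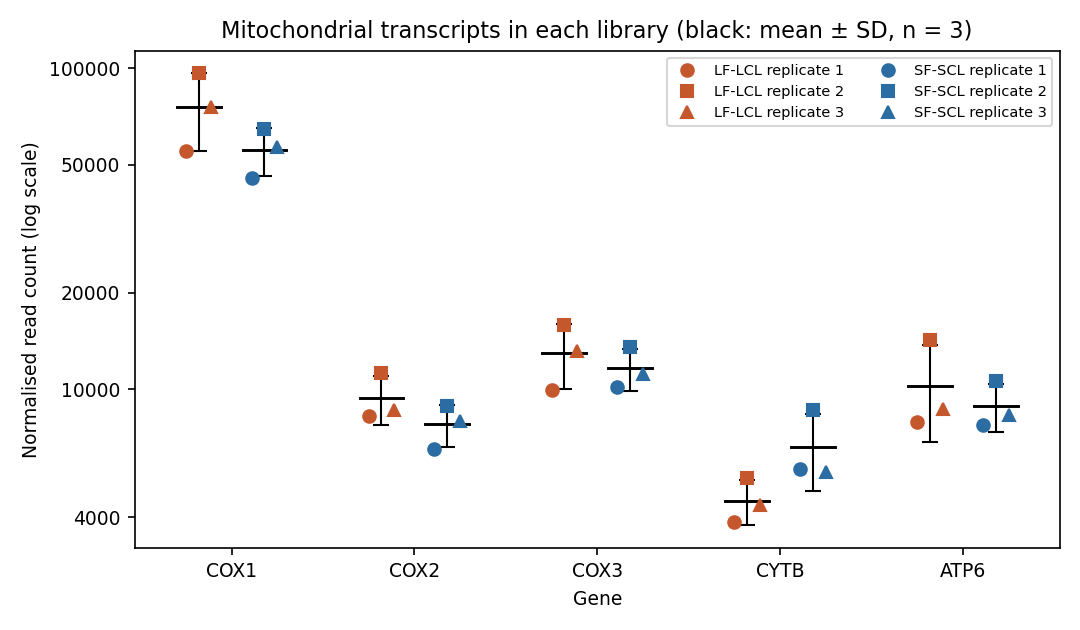
Normalised read count (log scale) of each of the 5 genes in each of the 6 libraries, with LF-LCL in orange, SF-SCL in blue, and the group mean ± SD in black. The groups overlap for COX1, COX2, COX3 and ATP6, while the LF-LCL values of CYTB (3862 to 5299) all lie below the SF-SCL values (5536 to 8651).

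Over the whole table, limma called 0.965% of 12535 tested genes at an adjusted p under 0.05, and 0 of the 5 members, all of which passed the filter on low values. At an unadjusted p under 0.05 limma passed 17.1% of all tested genes and 1 member, CYTB. edgeR on the recovered reads called 0.846% of the genes tested and 0 members, DESeq2 called 5.5% and 0 members, and limma-voom 1.28% and 0 members. Of all tested genes, 22.8% had groups that did not overlap, and 11% had LF-LCL lower in this way, as CYTB did. The median log2 fold change was 0.17 over the 5 members and -0.013 over all tested genes. Against these backgrounds, 1 member of 5 without overlap is close to what the whole table shows.

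**Figure D2:**
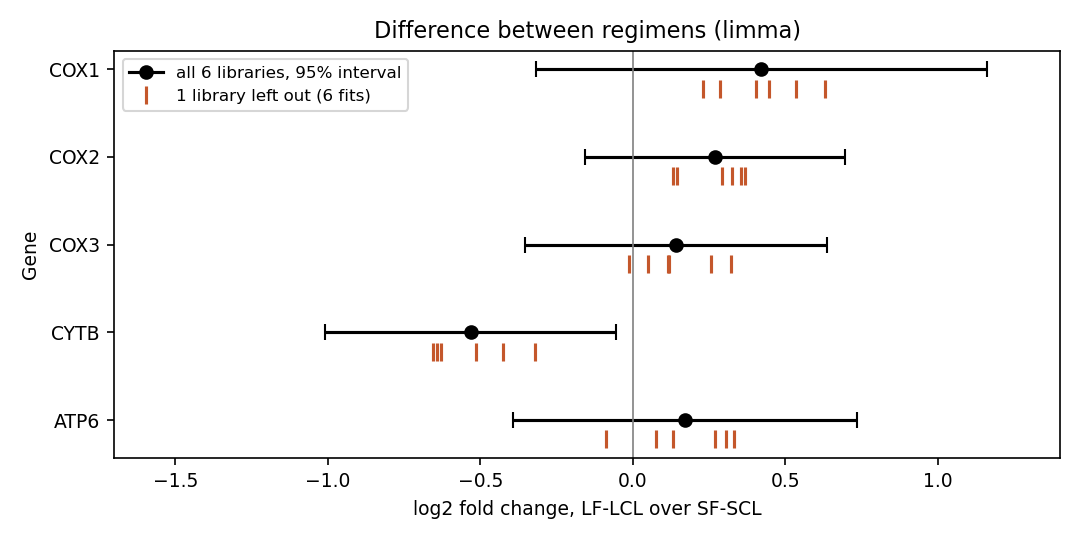
log2 fold change of each gene, LF-LCL over SF-SCL, with its 95% interval from limma (black) and the values with 1 library left out (orange ticks). The interval excludes 0 for CYTB alone, before adjustment over all genes, and the ticks of COX3 and ATP6 lie on both sides of 0.

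Shares of a library do not depend on the size factors, and here too CYTB alone had groups that did not overlap. The 5 genes together took 1.94% of gene reads in LF-LCL replicate 1 (95% Wilson interval 1.93% to 1.95%), 2.94% in replicate 2 (2.93% to 2.95%) and 2.44% in replicate 3 (2.42% to 2.46%). In SF-SCL they took 1.73% (1.72% to 1.74%), 2.44% (2.42% to 2.45%) and 2.01% (1.99% to 2.03%) in replicates 1 to 3. The intervals cover counting error alone (without molecular identifiers, reads are not independent molecules) and are far narrower than the spread between cows. The summed share was 2.44% ± 0.499 (SD, n = 3) in LF-LCL against 2.06% ± 0.355 (SD, n = 3) in SF-SCL, with overlapping groups. The difference was 0.382 percentage points with all cows. It was 0.132 without LF-LCL replicate 2, 0.217 without SF-SCL replicate 1 and 0.631 without LF-LCL replicate 1.

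By gene, COX1 took 1.64% ± 0.363 (SD, n = 3) of reads in LF-LCL against 1.27% ± 0.218 (SD, n = 3) in SF-SCL (two-sided exact permutation p = 0.3). CYTB took 0.0977% ± 0.0105 (SD, n = 3) in LF-LCL against 0.150% ± 0.0418 (SD, n = 3) in SF-SCL (two-sided exact permutation p = 0.1). With 3 cows against 3 an exact p of 0.1 is the smallest possible, and 23% of all tested genes had shares without overlap, 13.7% with LF-LCL lower. The CYTB difference was -0.0526 percentage points with all cows and -0.0285 without SF-SCL replicate 2. That of COX1 was 0.372 with all cows, 0.199 if LF-LCL replicate 2 was left out and 0.561 if LF-LCL replicate 1 was. For COX2, COX3 and ATP6 the groups overlapped, with exact permutation p-values of 0.4, 0.8 and 0.6.

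**Figure D3:**
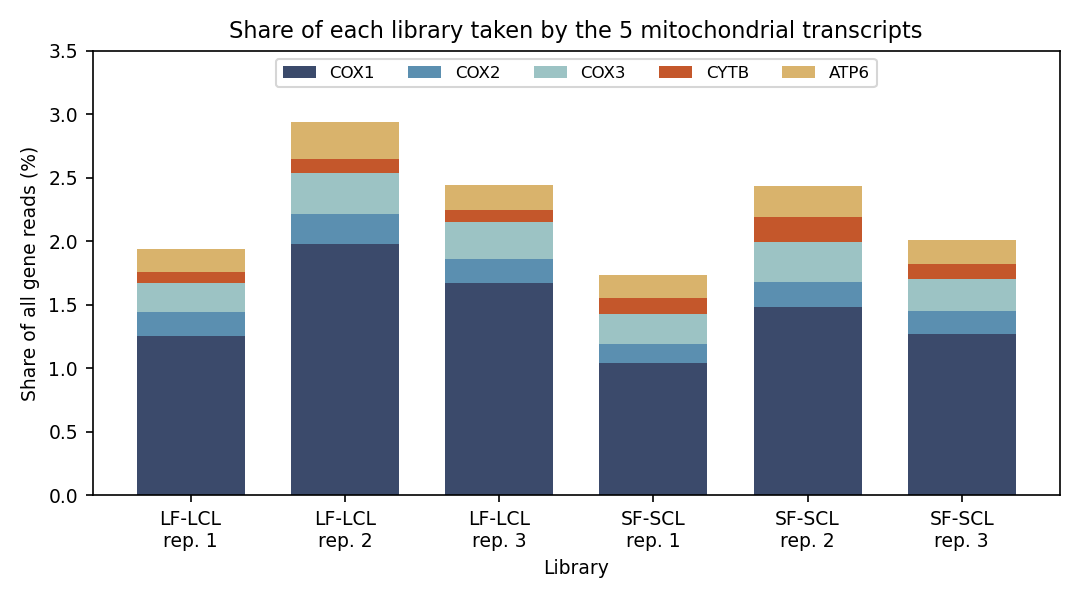
Share of all gene reads (%) taken by the 5 genes in each library, stacked by gene. The totals run from 1.73% in SF-SCL replicate 1 to 2.94% in LF-LCL replicate 2, and the CYTB band is narrowest in the LF-LCL libraries.

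Within a regimen the transcripts varied together between cows. LF-LCL replicate 2 had the highest value of its group for 5 of 5 genes, and LF-LCL replicate 1 the lowest for 5 of 5. In SF-SCL, replicate 2 was highest for 5 of 5 genes and replicate 1 lowest for 4 of 5, CYTB being lowest in replicate 3. In LF-LCL the library lowest for all 5 genes, replicate 1, was the deepest of all with 7811332 reads. In SF-SCL the library highest for all 5 genes, replicate 2, was the deepest of its group with 5992987 reads, and the order of CYTB there was the order of depth. The part of depth in these orders was not tested. The 5 transcripts share each library, so these orders are not independent of each other. How many of all tested genes had the same orders was not counted. Whether the orders are particular to these 5 genes was thus not tested.

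The spread between cows of a regimen was above the median of genes of like abundance for each member, which for COX1 were only 2 genes. The SD of the log2 level was 0.23 to 0.45 over the members in LF-LCL and 0.21 to 0.36 in SF-SCL. The 57 other genes at least as abundant as CYTB had median SDs of 0.20 and 0.17. ATP6 had a higher SD in LF-LCL than 64 of 66 genes of like abundance (within 2-fold of its mean), and CYTB a higher SD in SF-SCL than 160 of 185. No test was made of these spreads.

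Ratios between 2 transcripts of the same library cancel the level that all transcripts of that library share. COX1 reads per CYTB read numbered 14.3, 18.2 and 17.4 in LF-LCL replicates 1 to 3, and 8.10, 7.45 and 10.3 in SF-SCL replicates 1 to 3. All LF-LCL cows lay above all SF-SCL cows, with a log2 ratio of 4.05 ± 0.184 (SD, n = 3) against 3.09 ± 0.242 (SD, n = 3). The difference of 0.95 corresponds to 1.94-fold. The groups also did not overlap for COX2 to CYTB (difference in log2 ratio 0.80), COX3 to CYTB (0.67) and CYTB to ATP6 (-0.70). With 1 library left out, the COX1 to CYTB difference was 0.86 to 1.09.

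The ratios without CYTB differed less between the regimens. Of these 6 pairs, 5 overlapped, and the absolute differences in log2 ratio were 0.03 to 0.28. The exception was COX1 to COX3, at 2.53 ± 0.0667 (SD, n = 3) in LF-LCL against 2.25 ± 0.0919 (SD, n = 3) in SF-SCL, a difference of 0.28. For each of the 5 pairs without overlap the exact permutation p was 0.1, the smallest this design allows, and 0.2 after adjustment over the 10 pairs (two-sided).

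The background for these ratios was high. Among 11264 other genes with reads in every library, the ratio to CYTB did not overlap between the groups for 36%, the ratio to COX1 for 18.2%, the ratio to COX2 for 20.7%, the ratio to COX3 for 10.9% and the ratio to ATP6 for 9.84%. A fit of every tested gene's log2 ratio to CYTB, chosen after the values were seen, gave differences of 0.95 for COX1, 0.80 for COX2, 0.67 for COX3 and 0.70 for ATP6. The median over all 12534 genes was 0.52, and 14.7% of them had a difference at least as large as that of COX1. That fit called 0.168% of genes and none of the 4 members (limma, adjusted p = 0.211 to 0.286). COX1 and COX2 had an unadjusted limma p under 0.05 (0.0171 and 0.0352), as did 18.6% of all genes in that fit. The 21 genes it called became 0 when SF-SCL replicate 2 was left out and 298 when SF-SCL replicate 3 was, with none of the 4 members called in any of the 6 fits that left out 1 library. Each of these differences is the gene's own log2 fold change minus that of CYTB (-0.53), so the CYTB difference enters all of them. A difference above 0, as seen for the other 4 mitochondrial transcripts, was thus also the rule among the genes of the table.

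**Figure D4:**
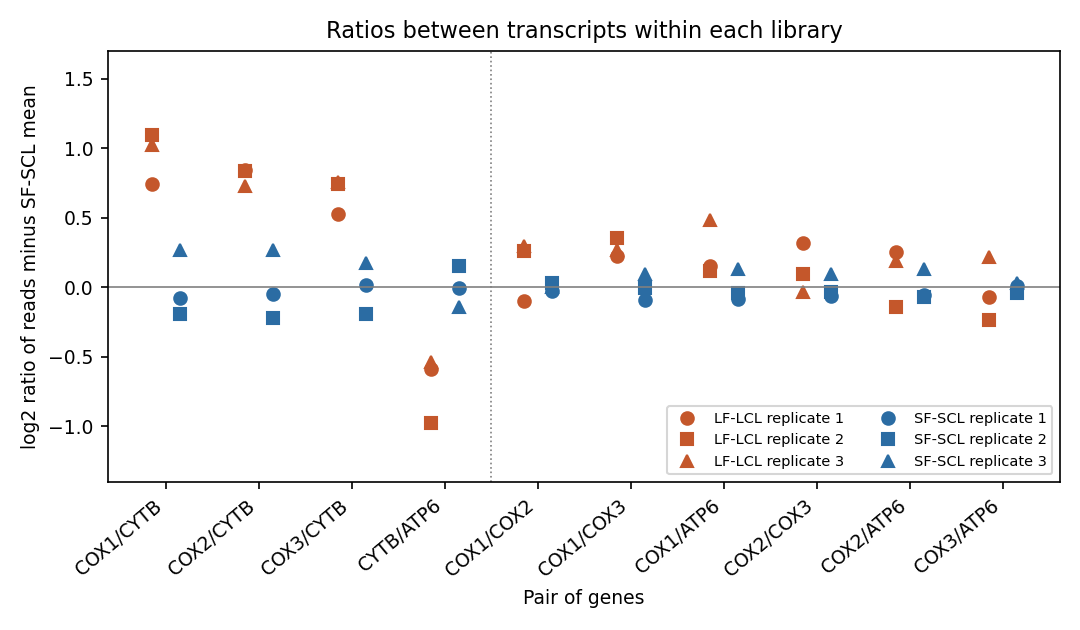
log2 ratio of reads between 2 genes in each library, minus the SF-SCL mean of that pair, for the 4 pairs with CYTB (left of the dotted line) and the 6 pairs without it. The LF-LCL and SF-SCL points are apart in all 4 pairs with CYTB and, of the others, in COX1 to COX3 alone.

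The reads of the 5 genes were also divided differently among them in the 2 regimens, a division that also reflects transcript length. COX1 held 66.9% ± 1.89 (SD, n = 3) of the members' reads in LF-LCL against 61.4% ± 1.62 (SD, n = 3) in SF-SCL. CYTB held 4.06% ± 0.425 (SD, n = 3) and 7.24% ± 1.01 (SD, n = 3). COX3 held 11.6% ± 0.448 (SD, n = 3) and 12.9% ± 0.518 (SD, n = 3). COX2 held 8.47% ± 1.08 (SD, n = 3) and 8.60% ± 0.257 (SD, n = 3), with overlapping groups. The groups also overlapped for ATP6, at 9.03% ± 1.08 (SD, n = 3) and 9.83% ± 0.498 (SD, n = 3). COX1 alone held a larger mean part in LF-LCL than in SF-SCL. The percentages of the 5 genes sum to a fixed total, so a higher part of one gene lowers that of another.

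Across all 6 libraries, 2 other genes followed the members' mean profile most closely among 6585 genes with a mean normalised read count of at least 100. The root mean square difference of centred log2 values was 0.079 for ENSBTAG00000018229 and 0.091 for ENSBTAG00000001666. By the same measure COX3 lay 0.060, ATP6 0.101, COX2 0.120, COX1 0.182 and CYTB 0.332 from that profile. Only COX3 thus lay closer to it than these 2 genes, although each member is itself part of the profile. ENSBTAG00000018229 had normalised read counts of 177, 281 and 191 in LF-LCL replicates 1 to 3 and 177, 243 and 173 in SF-SCL. Like all 5 members, it was highest in replicate 2 of each regimen, and it did not pass the test (log2 fold change 0.12; limma, adjusted p = 0.831). It was picked for its likeness to the members over these same libraries. Both traits therefore follow from the choice and are not a separate result.

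The number of genes called over the whole table depended on the cows included, while 0 of the 5 members were called in each of the 6 fits with 1 library left out. Against 121 genes with all cows, limma called 370 when SF-SCL replicate 3 was left out. It called 0 when either replicate 2 was left out, 1 when LF-LCL replicate 1 was, 2 when SF-SCL replicate 1 was, and 12 when LF-LCL replicate 3 was. The background share of 0.965% therefore holds for this set of 6 cows, and each fit with 1 library left out had 1 cow fewer. Without SF-SCL replicate 3 the log2 fold changes were 0.45 for COX1, 0.29 for COX2, 0.12 for COX3, 0.13 for ATP6 and -0.64 for CYTB (limma, adjusted p = 0.19 for CYTB).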

How the data were processed

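The authors deposited 1 table with a non-negative signal per gene and cow, namely gene read counts divided by 1 size factor per library. This was read from the values: 100% of values in each column were whole multiples of the smallest, to within 0.01 reads, which recovered whole reads. The submitters' processing notes list DESeq 1.12.1, HTSeq 0.5.4p2, Bowtie2 2.1.0, CASAVA 1.8.2 and SAMtools 0.1.18 without roles. The sources used here state no build, annotation or strand setting. 0 of 24616 identifiers matched the reference table, so the lists of nuclear-encoded subunits, mitochondrial regulators and cell markers were not tested, and no coordinates, transcript lengths or sequences were used.

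The regimens were compared with limma 3.58.1 (R 4.3.3) for genes whose mean was at least 1. The fit used log2(value + 1), the scale of its fold changes, without covariates, with prior variances that followed abundance. In the fit of ratios to CYTB, on the same scale, the prior variance did not follow abundance. Ratios between pairs of members were taken from recovered reads without a pseudocount. P-values were adjusted by Benjamini-Hochberg over every gene tested. edgeR 4.0.16 (quasi-likelihood) and DESeq2 1.42.0 on recovered reads, limma-voom, other pseudocounts, scalings and filters, and leaving out each library were alternatives. Shares of the library and log2 ratios between members were compared by exact permutation of the difference in group means (scipy 1.17.1). The main limma fit and 1 fit each of edgeR, DESeq2 and limma-voom were run on simulated data, and the other fits were not. Replicate numbers follow accession order. Named genes were the 5 members and the 2 genes nearest to their mean profile. The members and lists were chosen with earlier results of these data known.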

Additional observations from a re-analysis of the deposited data

How the results depend on the processing

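Under each of the 12 alternatives of scaling, pseudocount, filter and test, and in each of the 6 fits without 1 library, 0 of the 5 genes were called. The log2 fold change of COX1 was 0.36 to 0.46 over the 12 alternatives and 0.23 to 0.63 with 1 library left out, that of COX2 0.21 to 0.28 and 0.13 to 0.37, and that of CYTB -0.59 to -0.51 and -0.65 to -0.32 (adjusted p for CYTB 0.124 with DESeq2 to 0.521 without SF-SCL replicate 2, where limma was used). COX3 was at 0.08 to 0.17 over the 12 alternatives and ATP6 at 0.11 to 0.22. With 1 library left out they ran from -0.014 to 0.32 and from -0.088 to 0.33, and both changed sign without LF-LCL replicate 2. Without that library the differences in share also changed sign, in a leave-one-out range of -0.00576 to 0.0439 percentage points for COX3 and -0.0163 to 0.0400 for ATP6, as did the COX3 to ATP6 log2 ratio (-0.15 to 0.075). Each of these fits had 1 cow fewer, and the cause was not tested. Over the whole table, against 121 called genes, the 12 alternatives called 81 (pseudocount 0.1) to 689 (DESeq2) and the fits with 1 library left out 0 to 370. The difference in summed share was 0.132 to 0.631 percentage points with 1 library left out. No paired analysis was possible because the labels give cow numbers and no replicate numbers, so nothing pairs cows between the regimens. Each member had at least 3101 reads in every library.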
